A study of Homo sapiens with 6 samples.

Results

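The potassium channel genes of MCF10A cells are described here. They are the genes on the panel whose symbol starts with KCN, 95 of the 20812 genes measured. Apart from channel subunits the symbols take in auxiliary proteins, regulators and 3 noncoding transcripts. MCF10A is a long-established line of human mammary epithelial cells that does not form tumours. Each group had 2 libraries. WT was the untransfected line, eGFP was the control line stably overexpressing enhanced green fluorescent protein, and GIRK1 stably overexpressed the product of KCNJ3, the gene for the channel subunit GIRK1. Per the study's methods, the GIRK1 coding sequence was carried in a bicistronic vector that also encodes eGFP, and transfected cells were selected with G418 and sorted for green fluorescence, so the lines are sorted populations and no clone is stated. The series text speaks of separate lines and the methods of replicates, and neither says that the libraries of a group came from separate cultures. The p-values below therefore measure the spread between these libraries, which may be technical.

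Potassium channels let potassium ions cross the membrane along their gradient and thereby draw the membrane potential towards negative values. Inward rectifiers (KCNJ) and two-pore-domain channels (KCNK) conduct near rest, voltage-gated channels (such as KCNA, KCNC, KCND, KCNH and KCNQ) open on depolarisation, and the calcium-activated KCNN and KCNMA1 channels open when intracellular calcium increases. In epithelia potassium channels recycle potassium and provide driving force for ion transport. GIRK1 is an inward rectifier opened by G protein beta-gamma subunits, and it classically forms channels together with GIRK2 (KCNJ6), GIRK3 (KCNJ9) or GIRK4 (KCNJ5).

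The selectivity filter is the stretch these proteins share. Below it is shown for GIRK1 and its family partners, because the comparison turns on which of these genes were transcribed, and for 3 other channels detected in MCF10A. Each line holds 57 bases of the coding strand, taken from GENCODE transcript sequences and placed on the human genome (GRCh38) by the annotation. For KCNJ5 the transcript used was not matched to that of its amplicon. Capitals mark the 15 bases that encode the potassium channel signature.
KCNJ3 (GIRK1), chr2:154699181-154699237, plus strand: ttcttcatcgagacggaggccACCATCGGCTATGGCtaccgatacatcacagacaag
KCNJ5 (GIRK4), chr11:128911697-128911753, plus strand: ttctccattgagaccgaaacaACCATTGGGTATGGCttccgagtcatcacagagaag
KCNJ6 (GIRK2), chr21:37714668-37714724, minus strand: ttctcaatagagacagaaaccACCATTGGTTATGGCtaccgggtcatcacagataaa
KCNJ9 (GIRK3), chr1:160084367-160084423, plus strand: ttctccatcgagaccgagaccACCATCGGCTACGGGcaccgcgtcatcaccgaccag
KCNN4, chr19:43772036-43772092, minus strand: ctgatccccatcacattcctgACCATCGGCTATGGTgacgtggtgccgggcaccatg
KCNK1, its later pore stretch, chr1:233666891-233666947, plus strand: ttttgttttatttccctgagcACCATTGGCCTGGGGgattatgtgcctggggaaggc
KCNC4, chr1:110223570-110223626, plus strand: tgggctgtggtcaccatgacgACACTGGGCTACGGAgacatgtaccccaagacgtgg
Over these 57 bases KCNJ3 was identical to KCNJ5 at 45, to KCNJ6 at 44 and to KCNJ9 at 46, and each of the 3 matched it at 13 of the 15 signature bases. The reads were counted on 1 amplicon per gene, and that of KCNJ3 spans 101 bases of its transcript.

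The 6 libraries held between 2506120 reads (WT replicate 1) and 16040556 reads (WT replicate 2). Levels are given as RPM, the reads of a gene's single amplicon scaled to the library total. Amplicons of these genes were 87 to 127 bases long, so levels of different genes also depend on how well each amplicon was copied. A gene was called detected in a library with more than 3 reads, which is 0.187 RPM in the deepest and 1.2 RPM in the shallowest library. A count of 0 is given with that 3-read limit. Intervals, printed for counts above 0, are exact (Clopper-Pearson) two-sided 95% intervals. For 0 reads they would reach slightly above the 3-read limit, to 0.23 RPM in the deepest and 1.47 RPM in the shallowest library. Both cover counting error only. The library labelled WT replicate 1 stood apart. Its 8 basal epithelial markers summed to 389 RPM against 8549 to 16676 RPM in the other 5 libraries, with KRT14 and KRT17 at 0 reads, and its 10 luminal markers summed to 18911 RPM against 531 to 1029 RPM. The luminal genes ESR1, PGR, KRT19 and TFF1 had 481, 157, 2315 and 12796 reads in it and 0 reads in the other 5. The basal marker TP63 had 0 reads in all 6 libraries, and of 6 markers of blood, vessel and stromal cells PTPRC, CD3E and VWF also had 0. Of the other 3, PECAM1 and PDGFRB had at most 10 reads, while CD14 had 111 to 214 reads (7.11 to 21.6 RPM) in the other 5 libraries and 0 in WT replicate 1. WT replicate 1 is therefore shown apart from the main comparisons. The names of the deposited tables give both GIRK1 libraries another tag than the other 4, so whatever that tag marks and the overexpression cannot be told apart. The eGFP libraries differed at least 2-fold from each other at 15.5% of the genes tested, the GIRK1 libraries at 5.65%, and eGFP replicate 2 from WT replicate 2 at 5.71%.

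Few potassium channel genes were detected in MCF10A. Of the 95 genes, 47 had 0 reads in all 6 libraries (49.5%, against 23.9% of all 20812 genes), and another 21 never had more than 3 reads. In the 5 libraries other than WT replicate 1, 22 genes were detected at least once (23.2%, against 62.3% of all genes) and 9 were detected in every one (9.47%, against 52.2%). These 9 were KCNN4, KCNK1, KCNG1, KCNQ5, KCNK5, KCNAB2, KCNS3, KCNC4 and KCNK6. The remaining 5 genes passed 3 reads in WT replicate 1 alone. Without KCNJ3, the KCN genes summed to 153 and 154 RPM in the GIRK1 libraries, 212 and 162 RPM in the eGFP libraries and 169 RPM in WT replicate 2.

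**Figure D1:**
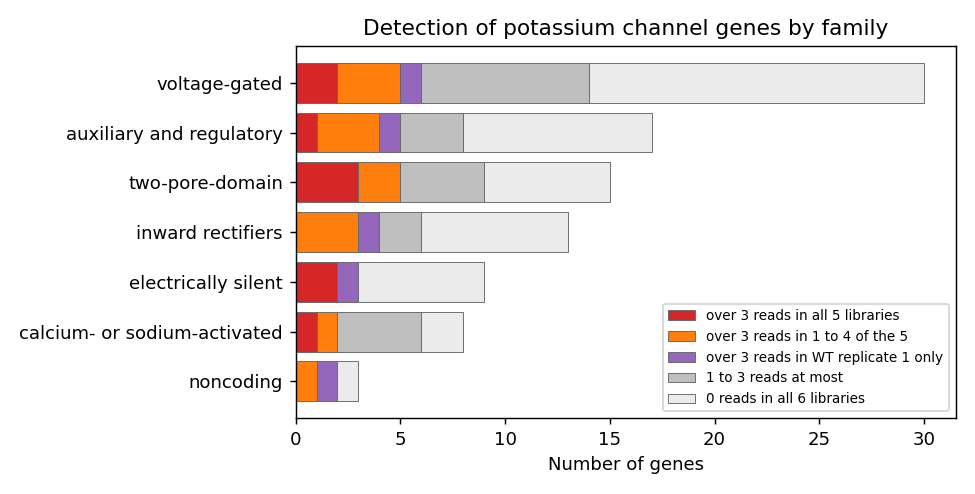
Number of potassium channel genes per family (horizontal axis), split by detection: more than 3 reads in all 5 libraries other than WT replicate 1, in 1 to 4 of them, in WT replicate 1 only, 1 to 3 reads at most, or 0 reads in all 6 libraries. Of the 30 voltage-gated genes, 16 had 0 reads in every library, and no inward rectifier was detected in all 5.

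Detection was spread over the families. Of 15 two-pore-domain genes, 5 were detected in at least 1 of the 5 libraries and 3 in all of them. Of 13 inward rectifiers 3 were detected, none in all 5, and 7 had 0 reads throughout. Among these 7 were KCNJ1, the renal outer medullary potassium channel, and KCNJ10, the main inward rectifier of glia. Of 30 voltage-gated genes 5 were detected and 16 had 0 reads throughout. The Shaker-type genes of that family, KCNA1 to KCNA7 and KCNA10, all had 0 reads in all 6 libraries. Of the 9 electrically silent genes, whose products open only in channels with other voltage-gated subunits, 2 were detected in all 5 libraries. KCNMA1, the large-conductance calcium-activated channel, had 2 reads in WT replicate 2 and 0 reads in the other libraries. Of 17 auxiliary and regulatory genes 4 were detected, and the KCNE1 to KCNE4 genes, beta subunits of KCNQ and KCNH channels, had 0 reads in all 6.

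KCNJ3 was by far the most abundant potassium channel transcript of the GIRK1 libraries. It lies on chr2:154698299-154858352 (GRCh38, plus strand). It had 2408 reads (217 RPM, interval 208 to 226) in GIRK1 replicate 1 and 3677 reads (355 RPM, interval 344 to 367) in GIRK1 replicate 2. It had 0 reads in both eGFP libraries and in WT replicate 2, and 48 reads (19.2 RPM, interval 14.1 to 25.4) in WT replicate 1. The GIRK1 libraries did not overlap with any other library. Their mean of 286 ± 98 RPM (SD, n = 2) was 489-fold the largest limit among the 3 control libraries (3 reads per library, 0.585 RPM in eGFP replicate 1), and 14.9-fold the level in WT replicate 1. The exact interval for 0 reads in eGFP replicate 1 reaches higher than that limit, to 0.72 RPM. KCNJ3 took 58.6% and 69.8% of all KCN reads in the 2 GIRK1 libraries, and stood at rank 673 and 370 among all genes there. Since the construct carries the coding sequence and the amplicon counts any transcript that holds it, transgene and endogenous transcript cannot be told apart.

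The other GIRK subunits were not detected. KCNJ5, KCNJ6 and KCNJ9 each had 0 reads in all 6 libraries, the GIRK1 libraries included. The 3-read limit of the GIRK1 libraries is 0.27 and 0.29 RPM (0.332 and 0.357 RPM by the two-sided exact interval), beside 217 and 355 RPM for KCNJ3. Their amplicons are not those of KCNJ3, and how well each of them is copied was not tested. The counts are of RNA and do not measure protein. The study reports a more negative resting potential in the GIRK1 line, which the GIRK blocker tertiapin-Q removed. It also cites earlier work for GIRK4 protein in MCF10A.

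The question of the comparison is whether other potassium channel genes differed when GIRK1 was overexpressed. GIRK1 was compared with eGFP, and with the 3 control libraries (both eGFP libraries and WT replicate 2) as 1 group, by edgeR's quasi-likelihood test over all genes with Benjamini-Hochberg adjustment at 0.05. Both comparisons share the GIRK1 and eGFP libraries, so they are given side by side only. Of the 95 genes, 14 had enough reads to be tested against eGFP and 13 against the 3 controls. KCNJ3 passed the read filter only through the GIRK1 libraries, so it had to differ. It was the only member called in either comparison (adjusted p = 0.00195 against eGFP and 0.0014 against the 3 controls, edgeR). No member was called lower. Over all genes tested, 0.756% were called higher and 0.84% lower against eGFP, and 0.799% higher and 0.413% lower against the 3 controls. In a test on simulated counts the procedure recovered 90.5% of the 4-fold changes against eGFP but 0% of the 2-fold changes. Against the 3 controls it recovered 89% and 3.5%. The changed genes there were drawn only from those with enough expected reads in the smallest library fitted. The recovery at 4-fold thus does not describe low-count members such as KCNAB3 and KCNK6. Most members differed by about 2-fold or less, and the procedure rarely called 2-fold changes in the simulated counts. A missing call therefore does not show that levels were equal. In a fit that took WT replicate 1 in as well, 0 genes of any kind were called against eGFP. There KCNJ3 lost its call, with an adjusted p of 0.905 against eGFP and of 0.7 against 4 controls, WT replicate 1 among them (edgeR), although its reads in the GIRK1 and eGFP libraries are the same.

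At an unadjusted p under 0.05, 5 members passed in each comparison, against 18.8% of all genes tested against eGFP and 18.7% against the 3 controls. KCNJ3, KCNAB3, KCNJ15 and KCNK5 were among them in both, and KCNK1 against the 3 controls. The median log2 fold change of the tested members other than KCNJ3 was -0.36 against eGFP and -0.34 against the 3 controls, beside 0.02 and -0.01 for all genes tested. By range, 2 of 13 members had both GIRK1 libraries above all 3 controls (KCNJ3 and KCNAB3), where 21.6% of all genes tested did, and 3 of 13 had both below (KCNK1, KCNK5 and KCNK6), where 19.5% did. Of these, KCNJ3 and KCNAB3 passed the read filter only through the GIRK1 libraries, and KCNK6 only through the controls, the groups where they were high. The study's own rule asks for means 2-fold apart and for replicates whose SD, divided by their mean, stays under 0.7 (here required of both groups). By this rule 1 of the 20 members with reads in both groups was higher in GIRK1 than in eGFP (KCNAB3; 4.75% of all genes were), and 3 were lower (KCNJ11 and KCNK6 among them; 5.17% of all genes). KCNJ3 was not counted by that rule, as it had 0 reads in eGFP. KCNJ11 had 1 read in each GIRK1 library.

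**Figure D2:**
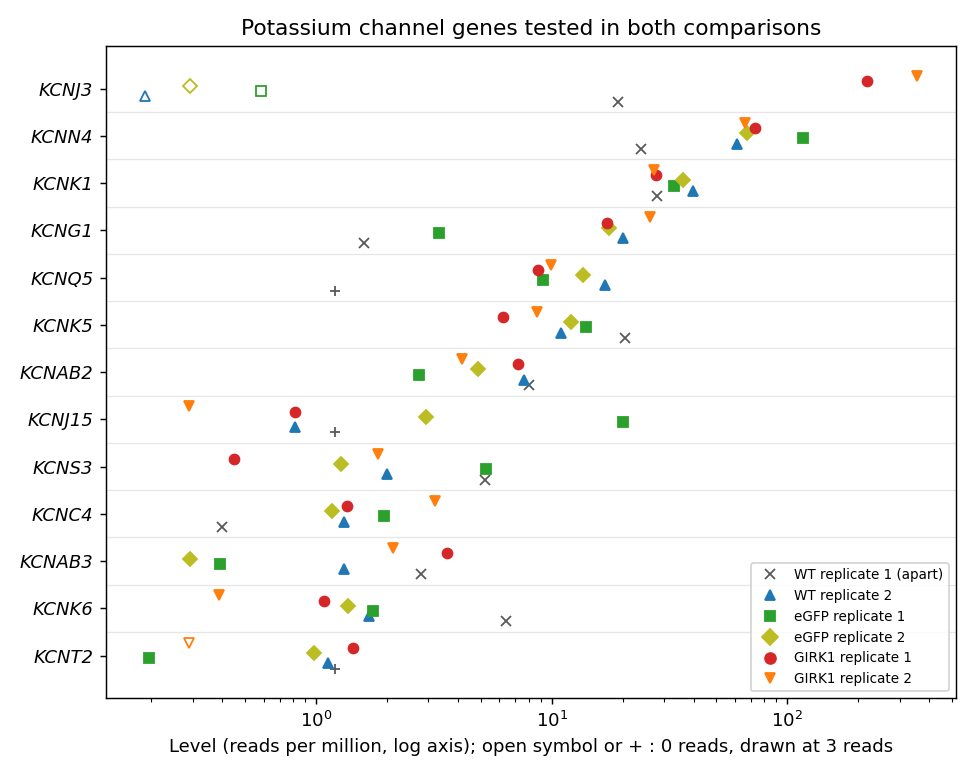
Level in RPM (log axis) of the 13 potassium channel genes tested in both comparisons, in each of the 6 libraries, 1 symbol per library, with genes ordered by their mean over the 5 libraries other than WT replicate 1. Open symbols and plus signs stand for 0 reads and are drawn at 3 reads of that library. KCNJ3 sits at 217 and 355 RPM in the GIRK1 libraries and at 0 reads in the 3 controls, while for KCNN4, KCNG1, KCNJ15 and KCNS3 eGFP replicate 1 lies away from the other controls.

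Among the inward rectifiers, KCNJ15 had the largest difference after KCNJ3, and its size depended on eGFP replicate 1. KCNJ15 encodes the inward rectifier Kir4.2. It had 103 reads (20.1 RPM) in eGFP replicate 1, 30 reads (2.93 RPM) in eGFP replicate 2 and 13 reads (0.81 RPM) in WT replicate 2. The GIRK1 libraries had 0.81 RPM (9 reads) and 0.29 RPM (3 reads). The eGFP libraries lay above both GIRK1 libraries, but WT replicate 2 was level with GIRK1 replicate 1. KCNJ15 passed the read filter only through the eGFP libraries, where it was high. Its filtered tests are therefore no separate support for a difference. The log2 fold change was -4.38 ± 1.06 (SE) against eGFP with an adjusted p of 0.104 and -3.79 ± 1.5 against the 3 controls with an adjusted p of 0.245 (edgeR). Without eGFP replicate 1 the first became -2.36, and without eGFP replicate 2 it was -5.25. DESeq2 called KCNJ15 lower in both comparisons, with adjusted p of 4.5e-05 and 0.0156. KCNJ11, the pore subunit of ATP-sensitive channels, had 1 to 5 reads in each of the 5 libraries.

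The 3 two-pore-domain genes found in every library had lower values in both GIRK1 libraries than in all 3 controls, and none passed the test. They are the 3 of 13 members counted above, a share near the 19.5% of all genes tested. These channels carry background potassium current. KCNK1 (TWIK-1) had 27.8 RPM (309 reads) and 27.3 RPM (282 reads) in the GIRK1 libraries. It had 33.0 and 36.1 RPM in the eGFP libraries and 39.8 RPM in WT replicate 2. The log2 fold change was -0.36 ± 0.22 (SE) with an adjusted p of 0.394 against eGFP (edgeR). Against the 3 controls it was -0.42 ± 0.17, with a p of 0.0458 before and 0.261 after adjustment (edgeR).

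KCNK5 (TASK-2), an alkaline-activated background channel found in epithelia such as the kidney tubule, had 6.21 RPM (69 reads) in GIRK1 replicate 1 and 8.70 RPM (90 reads) in GIRK1 replicate 2. The eGFP libraries had 14.0 and 12.1 RPM and WT replicate 2 had 11 RPM. All 3 controls thus lay above both GIRK1 libraries, and WT replicate 1 was higher still with 20.4 RPM. The mean was 7.46 ± 1.76 RPM in GIRK1 and 12.4 ± 1.55 RPM in the 3 controls (SD, n = 2 and 3). The log2 fold change was -0.85 ± 0.32 (SE) against eGFP with an adjusted p of 0.224, and -0.75 ± 0.28 against the 3 controls with an adjusted p of 0.229 (edgeR). The log2 fold change against eGFP was -1.02 without eGFP replicate 2 and -0.68 without eGFP replicate 1.

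KCNK6 (TWIK-2) was a low-count gene, with 12 and 4 reads (1.08 and 0.387 RPM) in the GIRK1 libraries. The controls had 9 and 14 reads in eGFP (1.75 and 1.37 RPM) and 27 reads in WT replicate 2 (1.68 RPM). The log2 fold change was -1.08 ± 0.72 (SE) against eGFP, with an adjusted p of 0.447 (edgeR). KCNK6 entered the fit against the 3 controls only through the control libraries, where it was higher. Its lack of overlap is therefore no separate support for a difference. KCNK15 and KCNK2 were detected in some libraries but had too few reads to be tested.

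Among the calcium- and sodium-activated channels, KCNN4 was the most abundant potassium channel transcript of the 3 control libraries. It encodes the intermediate-conductance calcium-activated channel KCa3.1, the classical calcium-activated channel of epithelial cells and lymphocytes. It had 117 and 67.6 RPM in the eGFP libraries and 61.2 RPM in WT replicate 2. The GIRK1 libraries had 73.3 and 65.9 RPM, inside the range of the controls, and KCNJ3 exceeded KCNN4 there 2.96-fold and 5.39-fold. KCNN4 had a log2 fold change of -0.46 ± 0.31 (SE) against eGFP with an adjusted p of 0.458 (edgeR), and without eGFP replicate 1, the only control above the GIRK1 libraries, it was 0.06. Without eGFP replicate 2 it was -0.85. KCNT2, a sodium-activated channel, had 16 reads in GIRK1 replicate 1 and 0 reads in GIRK1 replicate 2, against 1, 10 and 18 reads in eGFP replicates 1 and 2 and WT replicate 2.

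The most abundant voltage-gated gene was KCNQ5, which encodes a subunit of the M-type channels Kv7. KCNQ5 had 8.73 and 9.96 RPM in the GIRK1 libraries, 9.17 and 13.6 RPM in the eGFP libraries and 16.8 RPM in WT replicate 2. The groups overlapped through eGFP replicate 1, and the log2 fold change against eGFP was -0.33 ± 0.30 (SE) with an adjusted p of 0.579 (edgeR). KCNC4 (Kv3.4), a fast-inactivating channel, had 15 and 33 reads in the GIRK1 libraries (1.35 and 3.19 RPM). Its controls had 10 and 12 reads in eGFP (1.95 and 1.17 RPM) and 21 reads in WT replicate 2 (1.31 RPM). The KCNC4 libraries overlapped, with a log2 fold change of 0.55 ± 0.67 (SE) against eGFP and an adjusted p of 0.688 (edgeR).

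Of the electrically silent subunits, KCNG1 (Kv6.1) and KCNS3 (Kv9.3) were present in all 5 libraries. KCNG1 had 17.1 and 26.2 RPM in the GIRK1 libraries, 17.5 RPM in eGFP replicate 2 and 20.1 RPM in WT replicate 2. In eGFP replicate 1 it had 17 reads (3.32 RPM), which set that library apart from the other 4. Against eGFP its log2 fold change was 0.99 ± 0.61 (SE) with an adjusted p of 0.408 (edgeR). It was 0.33 without eGFP replicate 1, and 2.60 without eGFP replicate 2. KCNS3 had 5 and 19 reads (0.45 and 1.84 RPM) in the GIRK1 libraries, which differed by more than 2-fold. The eGFP libraries had 5.27 and 1.27 RPM and WT replicate 2 had 2 RPM, so the groups overlapped. KCNS3 had a log2 fold change against eGFP of -1.49 ± 0.93 (SE) with an adjusted p of 0.415 (edgeR), and -0.14 without eGFP replicate 1. Without eGFP replicate 2 it was -2.31.

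KCNAB3 was the tested member other than KCNJ3 with both GIRK1 libraries above all controls. It encodes a cytoplasmic beta subunit of voltage-gated channels, with an aldo-keto reductase fold. It had 40 reads (3.60 RPM, interval 2.57 to 4.90) and 22 reads (2.13 RPM, interval 1.33 to 3.22) in the GIRK1 libraries. The eGFP libraries had 2 and 3 reads (0.39 and 0.293 RPM) and WT replicate 2 had 21 reads (1.31 RPM). The GIRK1 libraries were well above eGFP, while the gap to WT replicate 2 was smaller. The log2 fold change was 3.05 ± 0.71 (SE) against eGFP with an adjusted p of 0.0992, and 1.92 ± 0.64 against the 3 controls with an adjusted p of 0.19 (edgeR). KCNAB3 entered the fit against the 3 controls only through the GIRK1 libraries, where it was high. That test and the lack of overlap are therefore no separate support for a difference. KCNAB3 passed against eGFP in edgeR with no filter on low counts (adjusted p = 0.0226). It did not pass against eGFP with DESeq2 (adjusted p = 0.0846). Nor did it pass with a replicate block (0.0692), other size factors (0.103) or all 6 libraries (0.868, edgeR). The log2 fold change against eGFP was 3.26 without eGFP replicate 1 and 2.74 without eGFP replicate 2. The related KCNAB2 had 80 and 43 reads (7.20 and 4.16 RPM) in GIRK1. The KCNAB2 controls had 2.73 and 4.89 RPM in eGFP and 7.61 RPM in WT replicate 2, a range that held both GIRK1 values, and its log2 fold change against eGFP was 0.51 ± 0.45 (SE) with an adjusted p of 0.57 (edgeR).

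**Figure D3:**
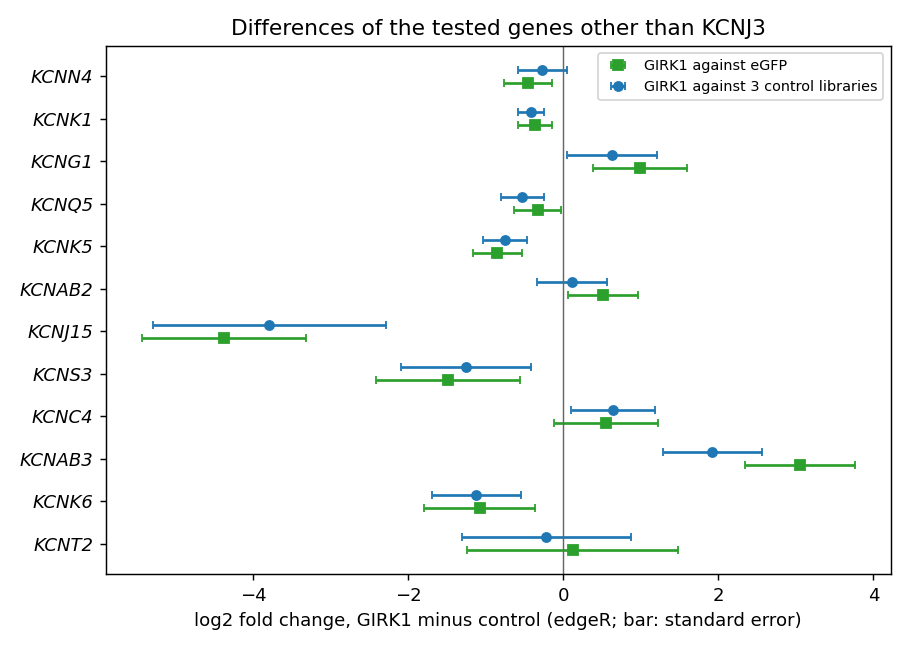
Log2 fold change, GIRK1 minus control, of the 12 members other than KCNJ3 tested in both comparisons, against eGFP (squares) and against the 3 control libraries (circles), with bars for the standard error from edgeR. None passed the adjusted threshold, and KCNJ15 (-4.38 and -3.79) and KCNAB3 (3.05 and 1.92) lie farthest from 0 on either side.

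A further 9 members were detected in at least 1 of the 5 libraries but had too few reads for the test against the 3 controls. In 3 of them both GIRK1 libraries lay above the controls, and in 2 both lay below. Of all 1567 genes detected but not tested in the same way, 16.5% lay above and 9.7% below, and with counts this low a difference of a few reads is enough. They are named here after their values were seen. KCNH8, a channel of the ether-a-go-go family, had 9 and 6 reads in GIRK1, 0 reads in both eGFP libraries and 1 read in WT replicate 2. KCNJ2-AS1, an antisense transcript beside KCNJ2, had 7 and 2 reads in GIRK1 and the same counts as KCNH8 in the controls. KCNK15 had 2 and 6 reads in GIRK1 and 0, 0 and 1 in the controls. KCNJ11 was among the lower 2. At such counts the exact intervals are wide, for KCNH8 from 0.371 to 1.54 RPM in GIRK1 replicate 1 and from 0.213 to 1.26 RPM in GIRK1 replicate 2.

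Proteins that partner with potassium channels were read from a list of 12 genes. Of the 11 on the panel, 6 had 0 reads in all 6 libraries, among them ABCC9, the sulfonylurea receptor of vascular ATP-sensitive channels, and DPP6 and DPP10, auxiliary subunits of Kv4 channels. Only 3 could be tested, 0 passed against eGFP and 1 passed against the 3 controls. This was NEDD4L, a ubiquitin ligase that takes KCNQ channels, among others, off the membrane. It had 54.9 and 47.1 RPM in the GIRK1 libraries, 90.1 and 108 RPM in eGFP and 108 RPM in WT replicate 2. NEDD4L was lower against the 3 controls (log2 fold change -1.02 ± 0.17 (SE), adjusted p = 0.0453, edgeR) and had an adjusted p of 0.0787 against eGFP. With the same 3 controls it also passed under DESeq2 (adjusted p = 1.02e-05), and in edgeR with no filter on low counts (0.0249) and with a replicate block (0.0238). Against the 3 controls it no longer passed without GIRK1 replicate 1, GIRK1 replicate 2, eGFP replicate 2 or WT replicate 2 (adjusted p of 0.318, 0.517, 0.208 and 0.0788, edgeR), with log2 fold changes of -0.93 to -1.12. Against eGFP it passed with DESeq2 (adjusted p = 0.0131), and in edgeR without the filter on low counts (0.0212) and with a replicate block (0.0448). It did not pass against eGFP with other size factors (adjusted p = 0.0781), without WT replicate 2 (0.0788) or with all 6 libraries (0.94, edgeR). With 1 library left out, its log2 fold change against eGFP was -0.90 to -1.09. SNX27, a sorting protein that binds GIRK2 and GIRK3, had 48.8 and 53.7 RPM in GIRK1 and 54.0 to 61.6 RPM in the controls (adjusted p = 0.717 against eGFP, edgeR). AKAP9, an anchoring protein of KCNQ1 channels, had 20.2 and 19.5 RPM in GIRK1, above the 12.1 and 12.9 RPM of eGFP and below the 20.5 RPM of WT replicate 2. Its adjusted p was 0.23 against eGFP and 0.504 against the 3 controls (edgeR).

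In WT replicate 1 the potassium channel genes differed from those of the other libraries, beside the luminal and basal markers given above. Whether the one moves with the other was not tested, and with 1 library there is no test of the difference. In bulk RNA fewer cells of a type and less RNA per cell cannot be told apart. Of the 12 members with a mean of 10 reads or more over the 6 libraries, 1 was at least 4-fold above the highest of the 3 controls (KCNJ3; 5.98% of all genes counted), and 1 was at least 4-fold below the lowest (KCNQ5; 6.8% of all genes). This mean gives little weight to the shallow WT replicate 1. KCNJ3 reached it through the GIRK1 libraries, and KCNK15, KCNJ8, KCNF1, KCNH2, KCNMB3, KCNJ11 and KCNQ1OT1, with 4.09 to 22.5 times the highest control (control counts under 3 reads set to 3), did not reach it and were not counted. Judged by counting intervals instead, 9 of the 16 members detected in WT replicate 1 lay wholly above the 3 controls, where 31% of all genes detected in that library did. Members and all genes alike entered this count by their reads in WT replicate 1, which favours genes high there. Of the 16, 5 passed 3 reads in that library alone. KCNQ5 had 0 reads in WT replicate 1, which allows up to 1.2 RPM, against 9.17 to 16.8 RPM in the 3 controls. KCNN4, at 23.9 RPM (interval 18.3 to 30.8), was below the 61.2 to 117 RPM of the controls. KCNK1 was at 27.9 RPM, close to the 27.3 and 27.8 RPM of the GIRK1 libraries.

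Several genes were detected in WT replicate 1 although they had at most 3 reads in any other library, despite its being the shallowest. KCNJ8, the other pore subunit of ATP-sensitive channels, had 15 reads (5.99 RPM) in it and 0 reads in the other 5 libraries. KCNH2, the hERG channel, had 9 reads (3.59 RPM) and KCNMB3, a beta subunit of KCNMA1, had 8 reads (3.19 RPM), also with 0 reads elsewhere. KCNF1, an electrically silent subunit, had 12 reads (4.79 RPM), and KCNQ1OT1, the imprinted noncoding transcript of the KCNQ1 locus, had 6 reads (2.39 RPM). KCNK15 had 33 reads (13.2 RPM, interval 9.06 to 18.5) in WT replicate 1 and 0 to 6 reads in the other 5 libraries.

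**Figure D4:**
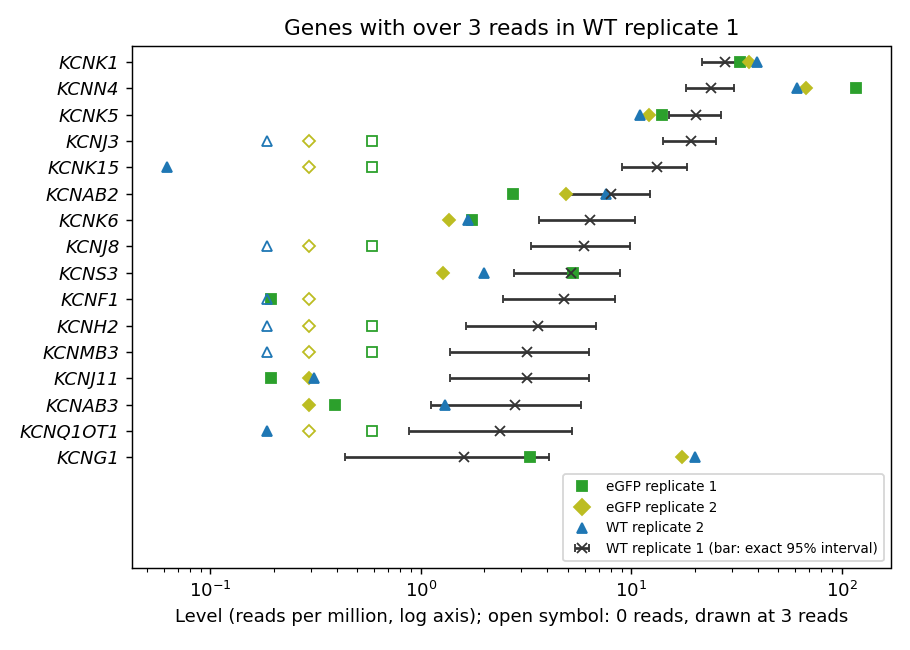
Level in RPM (log axis) of the 16 members with more than 3 reads in WT replicate 1 (crosses, with exact 95% intervals) beside the 3 control libraries, eGFP replicates 1 and 2 and WT replicate 2. Open symbols stand for 0 reads and are drawn at 3 reads of that library. KCNJ3, KCNK15 and KCNJ8 are at 19.2, 13.2 and 5.99 RPM in WT replicate 1 and at 0 or 1 read in the controls.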

How the data were processed

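RNA of MCF10A WT, eGFP and GIRK1 cells (2 libraries each) was amplified with the Ion AmpliSeq transcriptome panel and sequenced on an Ion S5 XL. Using the Ion Torrent suite, the authors aligned reads to the AmpliSeq transcriptome. They deposited raw read counts of 20812 amplicons and the RPM, which is the count scaled to the library total. Other deposited columns (strand read counts, amplicon position and GC bases) were not tested. How reads of near-identical genes were counted is not given in the sources used here.

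Members are the genes whose symbol starts with KCN. The members, families, marker and partner lists and tests were chosen with earlier results of these data known. Counts of 5 libraries, without WT replicate 1, were fitted with edgeR 4.0.16 (R 4.3.3; TMM, filterByExpr, glmQLFit and glmQLFTest, Benjamini-Hochberg over all genes tested, 11779 against eGFP and 11389 against the 3 controls). Standard errors were derived from the F value. The procedure was tested on simulated counts with 200 changed genes, drawn only from genes with enough expected reads in the smallest library fitted. Alternatives were DESeq2 1.42.0, other size factors, no filter, all 6 libraries, a replicate block and leaving out each library. Named genes were the GIRK subunits, members called, members whose GIRK1 and control libraries do not overlap (mean over the 5 libraries 10 reads or more), the 10 with the highest mean RPM and those at least 4-fold apart in WT replicate 1. Any other gene was named after its values were seen, and 1 gene is not reported here. Positions were matched by symbol to GENCODE (GRCh38) for 94 of 95 genes.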

Additional observations from a re-analysis of the deposited data

Results flagged for a closer look

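WT replicate 1 entered neither main comparison. In it 9 of the 16 potassium channel genes detected had an exact 95% interval that lay wholly above those of the 3 control libraries (both eGFP libraries and WT replicate 2), as did 31% of all genes detected in it. They were KCNJ3 at 19.2 RPM, KCNK15 at 13.2 RPM, KCNK6 at 6.38 RPM, KCNJ8 at 5.99 RPM, KCNF1 at 4.79 RPM, KCNH2 at 3.59 RPM, KCNJ11 at 3.19 RPM, KCNMB3 at 3.19 RPM and KCNQ1OT1 at 2.39 RPM. In the controls KCNJ3, KCNJ8, KCNH2 and KCNMB3 had 0 reads, while KCNK6 reached 1.75 RPM. The intervals cover counting error only, and there is 1 such library. Genes entered this count by their reads in WT replicate 1 itself, which favours genes high there. The basal and luminal marker levels of that library also differed from those of the other 5, and their part in these values was not tested.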

How the results depend on the processing

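KCNJ3 was called in both comparisons under every alternative except the fit of all 6 libraries. There 0 potassium channel genes and 0 genes in all were called against eGFP, and 0 and 7 against 4 controls, since WT replicate 1 then joins the 3. With no filter on low counts, 3 potassium channel genes (KCNJ3, KCNAB3 and KCNJ15) and 865 genes in all (188 in the main analysis) were called against eGFP, and 374 in all against the 3 controls. DESeq2 called 2 (KCNJ3 and KCNJ15) in each comparison, with 677 and 798 in all. The replicate numbers do not show that samples pair. Across 9288 genes the replicate differences of eGFP and GIRK1 had r = 0.193 over only 2 numbers. With the replicate block, 2 potassium channel genes (KCNJ3 and KCNJ15) were called in each comparison, with 549 and 558 in all. Leaving out 1 library, where a lone library is taken to vary like the others, gave 1 to 6 potassium channel genes and 158 to 2997 in all against eGFP. The 6, called without eGFP replicate 2, were KCNJ3, KCNG1, KCNJ15, KCNK5, KCNN4 and KCNS3. Against the 3 controls it gave 1 to 1 and 19 to 984. Some log2 fold changes changed sign. With 1 library left out, KCNN4 ranged from -0.85 to 0.06 (eGFP) and from -0.46 to 0.13 (3 controls), positive without eGFP replicate 1, and it was 0.03 against the 4 controls of the fit of all 6 libraries. KCNC4 ranged from -0.23 to 1.04 and from -0.13 to 1.14, negative without GIRK1 replicate 2. KCNAB2 against the 3 controls ranged from -0.31 to 0.51, at -0.14 without eGFP replicate 1 and -0.31 without GIRK1 replicate 1. The fitted value of KCNT2, which has 0 reads in GIRK1 replicate 2, ranged from -5.80 to 1.75 (eGFP) and from -6.13 to 0.76 (3 controls). It was -0.39 (eGFP) with the replicate block and 0.08 with all 6 libraries (4 controls), where AKAP9 was -0.08 and NEDD4L had an adjusted p of 0.823. Without the limit on variation, 9 potassium channel genes passed the 2-fold rule in place of 4. With 1.2 RPM as limit in every library, 13 were detected in place of 22. Chosen after seeing the data, leaving out eGFP replicate 1 gave 7 non-overlapping members in place of 5 and still 22 detected. The cause of these changes was not tested. Depth limits the members under about 10 reads.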
